A study of Caenorhabditis elegans with 2 samples.

Results

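Binding of NHR-2, a nuclear hormone receptor, was examined at 30 genes of Wnt and β-catenin signalling, out of the 19973 protein-coding genes annotated on the nuclear chromosomes. The genes were a named list in 9 roles, from secreted ligands to the nuclear effector and its kinases. They were chosen by name with earlier results of these data known, so the shares called are not those of a list made blind to the data. ChIP-seq, the sequencing of DNA that is precipitated with a bound protein, was done on whole embryos of the nematode Caenorhabditis elegans, mixed in stage and sex, from strain OP99, which is mutant for unc-119 (allele ed3, on chromosome III) and carries wgIs99, an insertion labelled as targeting nhr-2. The labels describe an eGFP fusion of NHR-2 in one field and name nhr-2 itself for the antibody elsewhere, which leaves the antibody used unsettled. There was 1 group of 2 libraries, labelled biological replicates 1 and 2, and a control is named in the labels but was not analysed here; whole embryos mix all cell types, so a peak cannot be placed in a cell type.

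Wnt ligands are secreted glycoproteins that bind Frizzled, Ror and Ryk receptors on neighbouring cells. Dishevelled proteins pass the signal on, and a destruction complex of APC, Axin, GSK3 and casein kinase 1 holds β-catenin levels down in its absence. In the worm embryo a divided pathway sets anterior-posterior differences between sister cells: the β-catenin WRM-1 and the Nemo-like kinase LIT-1 send the TCF factor POP-1 out of the nucleus, while the β-catenin SYS-1 is its coactivator. Between them, genes of Wnt signalling polarise the endoderm-mesoderm precursor, steer neuroblast migration and orient later divisions.

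The sequence under the summit, the position of highest signal in a peak, is shown for the promoter peaks of the Dishevelled genes dsh-2 and mig-5 and of the β-catenin gene wrm-1, because these are the promoter peaks for which sequence is printed here. They are followed by peaks outside promoter windows that were picked for display after their values were seen: the strongest peaks in the introns of cam-1 and lit-1, and both peaks upstream of cfz-2 and of mig-14. Each window reaches 75 bp to either side of the summit, and is read 5′ to 3′ on the strand of the gene from WBcel235, the assembly of build ce11. Capitals mark any of 6 words on either strand: AGGTCA, the core of many nuclear receptor sites, the repeat GAGAGA, the E-box word CAGGTG, the E-box word CAGCTG, the E-box word CACGTG, and CTTTGA, the core of the TCF site. The dsh-2 window was cut to 98 bases where it met the last exon of the neighbouring gene C04G6.4, which ends 23 bp from the summit.
dsh-2, chrII:5081392-5081489, minus strand: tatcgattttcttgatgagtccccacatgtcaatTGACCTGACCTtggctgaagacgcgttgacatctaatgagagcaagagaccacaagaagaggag
mig-5, chrII:8185134-8185284, minus strand: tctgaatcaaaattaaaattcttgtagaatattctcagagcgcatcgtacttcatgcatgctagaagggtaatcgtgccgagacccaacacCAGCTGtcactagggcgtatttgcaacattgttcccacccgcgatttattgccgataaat
wrm-1, chrIII:5722356-5722506, plus strand: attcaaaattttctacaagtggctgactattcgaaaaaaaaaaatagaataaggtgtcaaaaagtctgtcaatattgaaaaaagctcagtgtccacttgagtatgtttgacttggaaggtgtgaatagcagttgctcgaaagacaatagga
cam-1, chrII:9308882-9309032, minus strand: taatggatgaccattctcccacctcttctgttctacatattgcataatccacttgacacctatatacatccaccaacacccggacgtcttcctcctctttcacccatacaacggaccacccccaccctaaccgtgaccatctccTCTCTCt
lit-1, chrIII:13721156-13721306, plus strand: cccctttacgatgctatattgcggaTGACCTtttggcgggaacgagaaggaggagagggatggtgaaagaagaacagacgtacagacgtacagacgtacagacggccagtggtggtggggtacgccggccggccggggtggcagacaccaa
cfz-2 nearer peak, chrV:3447187-3447337, minus strand: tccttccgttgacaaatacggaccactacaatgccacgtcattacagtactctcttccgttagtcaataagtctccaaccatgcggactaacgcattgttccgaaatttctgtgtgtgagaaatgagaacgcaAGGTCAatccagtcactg
cfz-2 farther peak, chrV:3449021-3449171, minus strand: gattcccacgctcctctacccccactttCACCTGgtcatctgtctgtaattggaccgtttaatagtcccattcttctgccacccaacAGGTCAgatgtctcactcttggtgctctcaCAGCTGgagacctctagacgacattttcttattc
mig-14 nearer peak, chrII:13738268-13738418, plus strand: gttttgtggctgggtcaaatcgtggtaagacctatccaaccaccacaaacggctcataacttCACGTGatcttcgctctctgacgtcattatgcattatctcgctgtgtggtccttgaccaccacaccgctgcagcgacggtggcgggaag
mig-14 farther peak, chrII:13737011-13737161, plus strand: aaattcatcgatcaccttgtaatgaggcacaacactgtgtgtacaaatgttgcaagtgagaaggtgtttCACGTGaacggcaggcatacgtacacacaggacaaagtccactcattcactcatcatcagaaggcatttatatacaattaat

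The capitals show that the dsh-2 summit carried 2 copies of AGGTCA that share 1 base, written TGACCTGACCT on the strand shown. This arrangement, looked for after it was seen, lay within 75 bp of 1 of the 1843 nuclear thresholded summits, the dsh-2 summit itself. It lay at 4 of the 28139 weaker candidate summits. The wrm-1 window held none of the 6 words.

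A thresholded peak is a region that passed the authors' irreproducible discovery rate step, a method that compares ranks between lists of regions. The list held 1861, and they were the 1861 strongest of 30000 candidate regions of the series. Not every thresholded peak had a candidate region in both replicates. Signal is the authors' own enrichment score for a region. A gene was called by its promoter when a thresholded summit lay from 1000 bp upstream to 200 bp downstream of its annotated 5′ end. By this rule 6 of the 30 Wnt genes (20.0%) were called, against 4.16% of all protein-coding genes. With the window extended to 5 kb on either side of the gene body, 16 of the 30 (53.3%) were called, against 15.7% of all protein-coding genes. The Wnt genes were longer than most, with a median gene length of 4365 bp against 2027 bp, and a longer gene has a larger 5 kb window. Among the 9031 protein-coding genes within the Wnt genes' range of length, from 2198 to 22414 bp, 5.18% were called by promoter and 19.0% within 5 kb. In all 32 peaks lay within 5 kb of the 16 genes, 6 of them in the promoter windows.

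**Figure D1:**
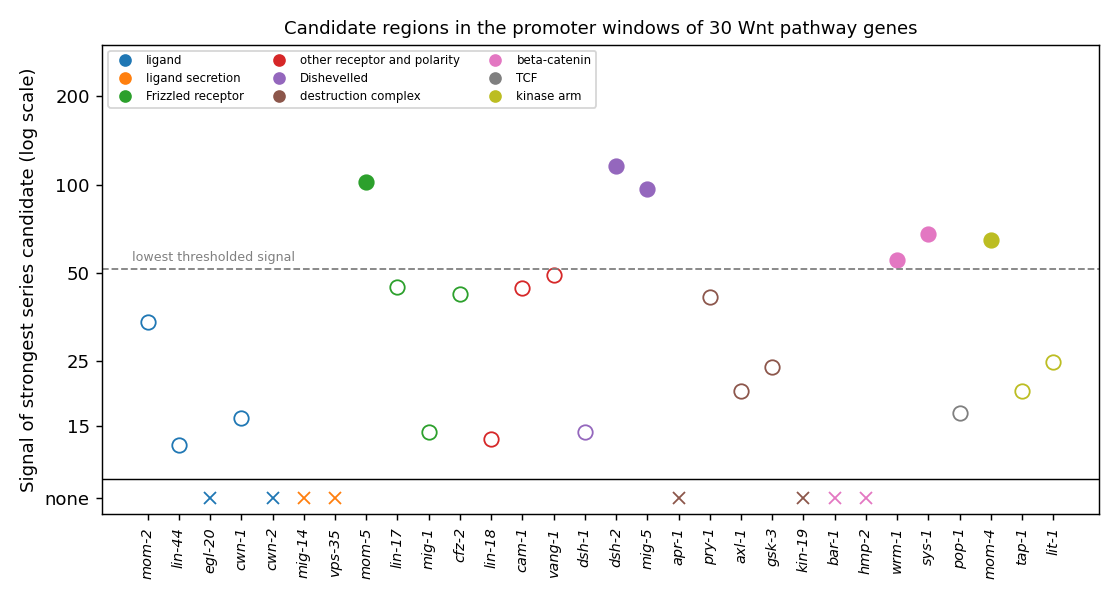
Signal of the strongest series candidate region with its summit in the promoter window of each of the 30 genes. The scale is log and colour marks the role. Filled circles passed the thresholding, open circles did not, and crosses in the lowest strip mark windows with no series candidate region. The 6 filled circles run from 55.1 for wrm-1 to 116 for dsh-2, and no ligand or destruction complex gene lies above the dashed line at 51.6, the lowest thresholded signal.

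The promoter calls fell in 4 of the 9 roles: the Frizzled receptors (1 of 4), Dishevelled (2 of 3), the β-catenins (2 of 4) and the kinase arm (1 of 3). None of the 5 ligands, 5 destruction complex genes, 3 other receptor and polarity genes or 2 ligand secretion genes was called by promoter, nor was the TCF gene pop-1. Within 5 kb, calls were made for 1 of 5 ligands, 1 of 2 secretion genes, 2 of 4 Frizzled receptors, 1 of 3 other receptors, 3 of 3 Dishevelled genes, 2 of 5 destruction complex genes, 3 of 4 β-catenins, pop-1, and 2 of 3 kinase arm genes. Roles of 1 to 5 genes are too small for the shares to be compared, and no test between roles was made.

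At the level of the ligands, no promoter window held a thresholded summit. The strongest candidate region was at mom-2, the Wnt that polarises the endoderm-mesoderm precursor, with a signal of 34.1 and a series rank of 3502, 720 bp upstream of the 5′ end. It ranked 5971 in replicate 1 and 4260 in replicate 2. The windows of cwn-1 and lin-44, which acts in tail cell polarity, held candidates of 16.0 and 12.9 only, and those of egl-20, a ligand of neuroblast migration, and cwn-2 held none in the series list. A single thresholded peak lay within 5 kb of any ligand: that of cwn-2 had a signal of 64.0 at 3317 bp upstream and was nearer to the 5′ end of ipla-7, at 1650 bp.

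Of the 2 genes of ligand secretion, mig-14, which encodes Wntless, the carrier that brings Wnts to the cell surface, had a pair of peaks 3395 and 4652 bp upstream, with signals of 91.9 and 104. The nearer ranked 952 and 787 in replicates 1 and 2, and the farther 701 and 700. Both held CACGTG, as the printed windows show, a word found at 4.88% of nuclear thresholded summits. Both were nearer to the 5′ end of R06B9.5 than to that of mig-14. The retromer gene vps-35, which recycles Wntless, had no thresholded peak within 5 kb and no series candidate in its promoter window.

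Among the Frizzled receptors, mom-5, the receptor of the endoderm-mesoderm precursor, had a promoter summit 744 bp upstream of its 5′ end with a signal of 102. It ranked 1091 in replicate 1 and 592 in replicate 2, and held AGGTCA and GAGAGA within 75 bp. This was the only promoter window that held the summit, and mom-5 was the gene with the nearest 5′ end. The cfz-2 peaks lay farther out, at 2385 and 4219 bp upstream, with signals of 98.4 and 90.0; no other protein-coding 5′ end was nearer to either. They ranked 879 and 910 in replicate 1 and 703 and 729 in replicate 2. Both held AGGTCA, which lay at 17.3% of all nuclear thresholded summits. The Frizzled genes lin-17 and mig-1 had no thresholded peak within 5 kb. Their strongest promoter candidates had signals of 44.7 and 14.3, and the mig-1 candidate had no counterpart in its window in replicate 2.

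The receptor tyrosine kinase gene cam-1, which encodes Ror, held the strongest peak of all 32, with a signal of 324 and rank 80 among thresholded peaks. It lay in an intron 1347 bp downstream of the 5′ end, and ranked 61 in replicate 1 and 111 in replicate 2. A weaker intronic peak of 64.8 lay 8950 bp downstream. The Ryk gene lin-18 and the Van Gogh gene vang-1, a planar polarity component, had no thresholded peak within 5 kb. 

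Both called Dishevelled genes had peaks close to the 5′ end. The dsh-2 summit was 293 bp upstream, with a signal of 116, the highest of the 6 promoter peaks, and ranked 1037 and 386 in replicates 1 and 2. The mig-5 summit was 186 bp upstream, with a signal of 96.7, and ranked 1183 and 523. The mig-5 summit also lay in the promoter window of cct-1, a chaperonin subunit gene whose 5′ end is 420 bp from that of mig-5 on the opposite strand, so the peak cannot be given to either alone. The third gene, dsh-1, had a peak of 60.9 at 2382 bp upstream, slightly nearer to the 5′ end of EGAP2.2, at 2130 bp, and a promoter candidate of only 14.3.

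No destruction complex gene was called by promoter. Within 5 kb of apr-1, the APC gene, there were 3 peaks: 1 of 171 at 3932 bp upstream, 1 of 139 at 1421 bp upstream and 1 of 68.2 beyond its 3′ end. The first ranked 499 and 181 in replicates 1 and 2, and the second 490 and 362. Each was nearer to the 5′ end of another gene, and the 1 of 139 lay within the body of K04G2.7. At gsk-3, the glycogen synthase kinase gene, peaks of 59.3 and 53.0 lay at the promoter of Y18D10A.4 and inside nhx-8. The Axin genes pry-1 and axl-1 and the casein kinase gene kin-19 had no thresholded peak within 5 kb. In the series list the promoter candidates were 41.3 for pry-1, 19.7 for axl-1 and none for kin-19. The kin-19 window held candidates ranked 4216 in replicate 1 and 29005 in replicate 2.

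The β-catenins differed among themselves in number and position of peaks. At wrm-1, 4 peaks stood upstream: the promoter peak at 419 bp had a signal of 55.1, and those at 2140, 3154 and 4269 bp had 94.2, 87.7 and 230. The promoter peak was the weakest of the 4, and ranked 2441 in replicate 1 and 1259 in replicate 2. The peak of 230 ranked 186 and 161, and the nearest 5′ end to it was that of arf-1, at 3695 bp. The summit of the peak of 87.7 lay in the noncoding RNA gene B0336.15. At sys-1, a promoter summit 425 bp upstream had a signal of 67.9 and ranks of 1263 and 1703. The other 2 peaks within 5 kb of sys-1 lay in promoter windows of other genes, 1 of 187 at the histone genes his-67 and his-68 and at alg-5, an Argonaute gene, and 1 of 56.6 at eif-3.C, a translation initiation factor gene. For hmp-2, the β-catenin of cell junctions, a peak of 78.2 lay 1395 bp upstream, in the promoter window of K05C4.7. It ranked 2083 and 664. The gene of the canonical pathway, bar-1, had no thresholded peak within 5 kb and no series candidate in its promoter window.

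The TCF gene pop-1 had no promoter summit but a strong intronic peak 1037 bp downstream of its 5′ end. Its signal was 309, rank 89 among thresholded peaks, and it ranked 74 in replicate 1 and 125 in replicate 2. A second peak of 101 lay 1328 bp upstream, in the noncoding RNA gene W10C8.8, with ranks of 642 and 1025. Both held GAGAGA, and pop-1 had the nearest protein-coding 5′ end for both.

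In the kinase arm, mom-4, which encodes a TAK1-like kinase upstream of LIT-1, had a promoter summit 118 bp downstream of its 5′ end. It had a signal of 64.5 and ranked 3029 in replicate 1 and 999 in replicate 2. The summit also lay in the promoter window of lsl-1, a zinc-finger gene that starts 259 bp away on the opposite strand. A stronger peak of 295 stood 3282 bp upstream, with ranks of 97 and 110, and held AGGTCA and GAGAGA; the 5′ end of lsl-1 was nearer to it, at 3023 bp. The lit-1 gene, the longest of the 30 at 22414 bp, held 4 intronic peaks between 15722 and 19440 bp from its 5′ end, with signals of 128, 83.0, 266 and 73.0. The last 2 summits were 200 bp apart and overlapped the same region in each replicate, ranked 144 and 120, so they are not separate observations. The peak of 128 lay 252 bp from the 5′ end of a shorter lit-1 transcript. The kinase cofactor gene tap-1, whose product binds MOM-4, had no thresholded peak within 5 kb and a promoter candidate of 19.7.

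**Figure D2:**
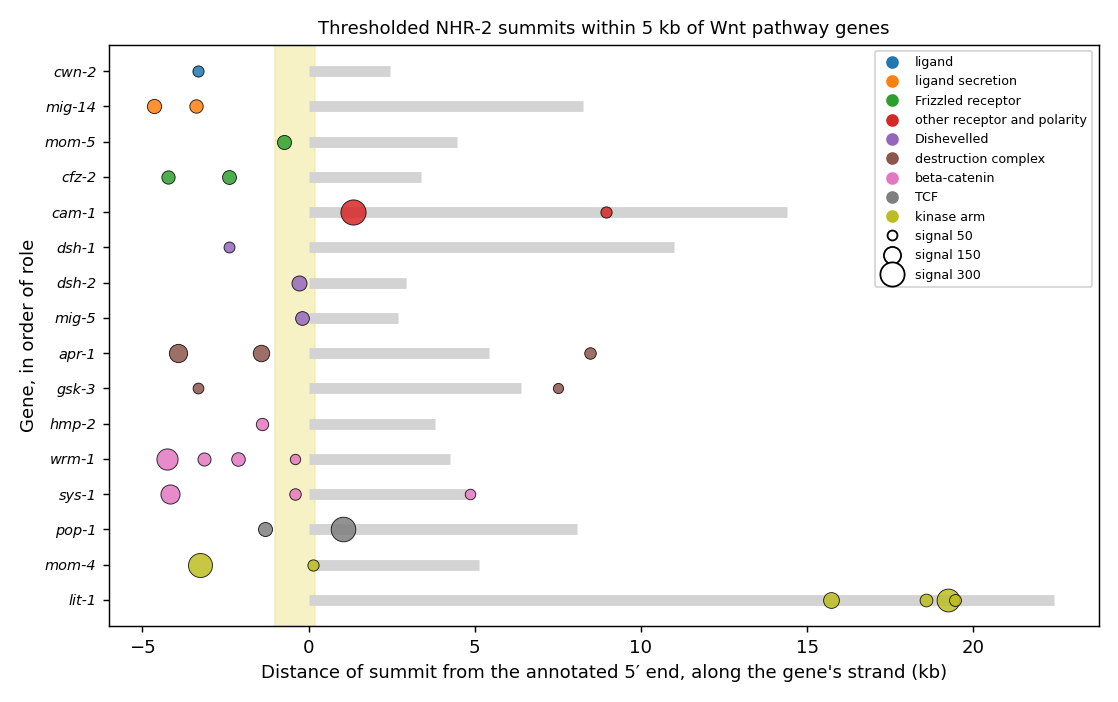
Distance in kb of each of the 32 thresholded summits from the annotated 5′ end of the gene, along its strand, for the 16 genes with a peak within 5 kb; grey bars are the gene bodies, the yellow band is the promoter window, and the area of a point is in proportion to its signal. The largest points, at cam-1 (324), pop-1 (309), mom-4 (295) and lit-1 (266), lie outside the yellow band, and the 6 points within it are small.

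Across the 32 peaks, the strongest lay away from the promoter windows. Of the 186 strongest thresholded peaks, 5 lay within 5 kb of a Wnt gene (cam-1, pop-1, mom-4, lit-1 and wrm-1), and 0 of these 5 were in a promoter window. The 5′ end of lsl-1 was nearer to the mom-4 peak, and that of arf-1 to the wrm-1 peak. The 186 are by definition a fixed share of the 1861, against 5 of the 32 here, and 23.7% of the 173 nuclear peaks among them were in the promoter window of a protein-coding gene. The 6 promoter peaks had a median signal of 82.3, and the 26 others 93.1. Over all nuclear peaks the medians were 73.6 for the 664 summits in any protein-coding gene's promoter window and 90.9 for the 1179 in none. The order was that of the whole list, though the splits differ: 4 of the 26 lay in another gene's promoter window. Inside the gene body but outside the promoter window, 3 of the 30 genes held a summit, against 2.04% of all protein-coding genes. The 3 were pop-1, cam-1 and lit-1, of 8069, 14390 and 22414 bp, where the median over all protein-coding genes is 2027 bp. A longer body has more room for a summit, and no share matched for length was taken. For 9 of the 16 genes with a peak within 5 kb, at least 1 of their peaks had that gene's annotated 5′ end as the nearest. For the other 7, cwn-2, mig-14, dsh-1, apr-1, gsk-3, hmp-2 and lit-1, another protein-coding 5′ end was nearer to every peak. Only the outermost start of each gene was used for this. The lit-1 peaks lay in its own introns, 252 to 2035 bp from the 5′ end of a lit-1 transcript. The start of W06F12.2 was 10258 to 13976 bp from them.

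The replicates each held a candidate region at all 32 peaks, which is not separate support, since the thresholding used both. Of the 32, 26 were at a region among the 1861 strongest of replicate 1 and 31 among those of replicate 2. Ranks ran from 61 to 3029 in replicate 1 and from 110 to 2249 in replicate 2. Of the promoter peaks, 5 of 6 ranked higher in replicate 2, sys-1 being the exception, against 52.4% of the 660 promoter peaks genome-wide with both ranks. Of the other 26 peaks 19 ranked higher in replicate 2, against 45.2% of the 1170 peaks genome-wide in no promoter window. The lean to replicate 2 was seen in both kinds. The sets are not alike, since 4 of the 26 lay in another gene's promoter window. These 4, near gsk-3, hmp-2 and sys-1, all ranked higher in replicate 2 and are counted in the 19. The lit-1 peaks that are 200 bp apart share a region in each replicate, and both are counted in the 32 and in the 19. With only the 1861 strongest regions of replicate 1, the promoters of mom-4 and wrm-1 were no longer called and those of lin-17 and vang-1 were, again 6 of 30, against 3.80% of all genes. With replicate 2 alone all 6 promoter calls were kept, against 4.55% of all genes.

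**Figure D3:**
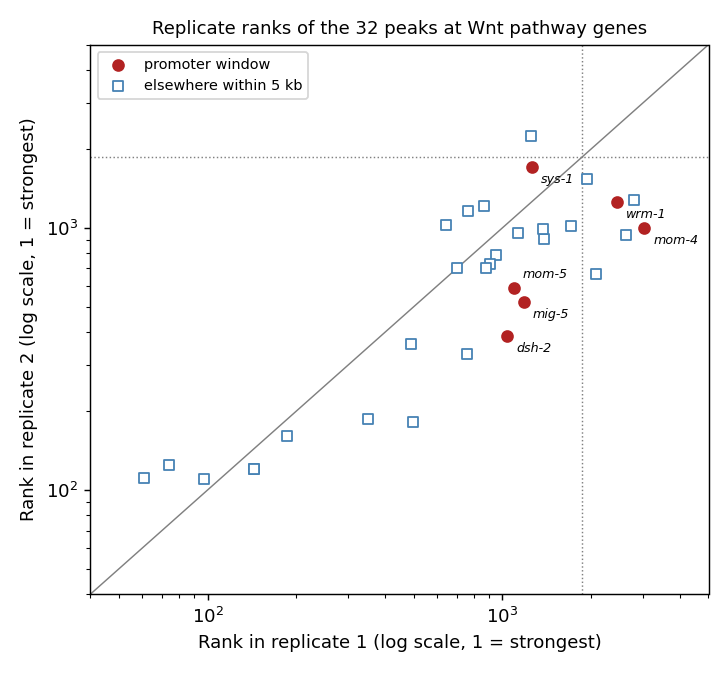
Rank of the strongest overlapping candidate region in replicate 1 against that in replicate 2 for the 32 peaks, both on log scales with 1 the strongest; filled circles are promoter peaks and open squares the others. The solid line marks equal ranks and the dotted lines rank 1861. The filled circles other than sys-1 lie below the line, 1 square stands for both of the lit-1 peaks that are 200 bp apart, and mom-4 (3029) and wrm-1 (2441) lie beyond the dotted line in replicate 1.

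On either side of the threshold the values were close. The weakest thresholded promoter peak was that of wrm-1, at 55.1 and series rank 1690. The strongest promoter candidates that were not thresholded were those of vang-1 at 49.2 and rank 1989, lin-17 at 44.7 and rank 2331, cam-1 at 44.5 and rank 2341, cfz-2 at 42.4 and rank 2517, and pry-1 at 41.3 and rank 2623. In all 22 of the 30 genes had a series candidate in the promoter window (73.3%), against 37.9% of all protein-coding genes. Of those 22, the 6 thresholded make 27.3%, against 11.0% of all genes with a candidate in the window.

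By chromosome, 3 of 12 Wnt genes on I were called by promoter, against 5.66% of all genes there, 2 of 7 on II (3.83%) and 1 of 3 on III (5.61%). None of the 2 on IV (3.05%), the 2 on V (2.26%) or the 4 on X (6.41%) was called. Within 5 kb the counts were 7 of 12 on I (18.6%), 5 of 7 on II (15.7%), 2 of 3 on III (20.0%), 1 of 2 on IV (13.3%) and 1 of 2 on V (8.99%). On X, which holds lin-18, vang-1, bar-1 and tap-1, it was 0 of 4, against 24.0%; at 4 genes no difference from that share can be read. In a stretch of 89.1 kb on chromosome I, from mom-4 through mom-5 to sys-1 and picked after its values were seen, 8 of 23 protein-coding 5′ ends were called by promoter (34.8%), the others among them including lsl-1, ztf-11 and eif-3.C. Outside it 3 of the other 27 Wnt genes were called, against 4.16% of all protein-coding genes and 5.18% of those in the Wnt genes' range of length. Whether the neighbourhood bears on the calls of these 3 genes was not tested.

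The promoter calls depended in part on the window and on the strength asked of a peak. In a window of 2000 bp upstream to 500 bp downstream 9 genes were called, with apr-1, hmp-2 and pop-1 added, against 5.95% of all genes. In a window of 500 bp to 100 bp 4 were called, without mom-4 and mom-5, against 3.08%. With only the strongest 930 thresholded peaks 3 were called, dsh-2, mig-5 and mom-5, against 1.55%, and 12 within 5 kb, against 7.75%. Counting any annotated transcript 5′ end added lit-1 (7 called, against 4.65%), and the same 6 were called with any 1 bp of a peak in the window (4.56%) and with each summit given to the nearest 5′ end only (3.24%). Within 2 kb of the gene body 12 genes were called (9.65%), and 9 with the summit in the gene body or promoter window (5.90%). Neither background share was matched for gene length. With a single replicate the counts within 5 kb were 16 for replicate 2 (17.0%) and 17 for replicate 1 (15.4%).

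The share of the 32 summits with each word is given beside its share of all 1843 nuclear thresholded summits. AGGTCA lay at 6 of 32 (18.8%, against 17.3%): at mom-5, dsh-2, mom-4 and lit-1 and at both cfz-2 peaks. GAGAGA lay at 13 (40.6%, against 552 of the 1843). CACGTG lay at 3 (9.38%, against 4.88%), CAGGTG at 3 (9.38%, against 14.4%) and CAGCTG at 2 (6.25%, against 6.35%). The TCF core CTTTGA lay at 2 (6.25%, against 6.89%), those of cwn-2 and apr-1, and at 10.8% of the weaker candidate summits. A match is a description of the letters and not a site.

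Of 30 further genes of the pathway, listed by role with earlier results of these data known, 29 were annotated by the name used. By promoter 7 of the 29 (24.1%) were called, against the 4.16% of all genes, and 14 (48.3%) within 5 kb, against 15.7%. With replicate 2 alone 4 were called by promoter, without fmi-1, cbp-1 and lin-23, against 4.55% of all genes. With the strongest 930 peaks 2 were, hmp-1 and ceh-22, against 1.55%, and in the narrower window 2 were, mom-1 and unc-37, against 3.08%. Their median length was 5828 bp. The strongest promoter peak was at hmp-1, the α-catenin gene, with a signal of 221 at 777 bp upstream and ranks of 185 and 205 in replicates 1 and 2. Its summit also lay in the noncoding RNA gene R13H4.11. The nuclear and turnover partners had 3 of 5 called: unc-37, the Groucho gene, at 71.3, cbp-1, the CBP acetyltransferase gene, at 63.1, and lin-23, an F-box gene, at 66.9, whose peak had no candidate region in replicate 2. With replicate 2 alone this count was 1 of 5, unc-37, and with the strongest 930 peaks it was 0 of 5. The other 3 were mom-1, the Porcupine gene of ligand acylation, with peaks of 59.6 and 54.1, fmi-1, the Flamingo cadherin gene, at 57.0, and ceh-22, an NK-2 homeodomain gene, at 83.5. The mom-1 peak of 59.6 lay in a tRNA gene and also in the promoter window of lev-9. The 5′ end of lev-9 was the nearer, at 573 bp against 807 bp. The mom-1 peak of 54.1 ranked 1040 in replicate 1 and 8423 in replicate 2. Of 9 described target genes of the pathway, ceh-22 alone was called by promoter, and 3 had a thresholded peak within 5 kb. Besides ceh-22 these were mab-5, with intronic peaks of 56.6 and 81.0, and egl-18, with a peak of 66.9 at 4516 bp upstream. The genes end-1, end-3, lin-39, egl-5, psa-3 and elt-6 had no thresholded peak within 5 kb.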

How the data were processed

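Per the texts deposited with the libraries, the authors made candidate region lists from the ChIP alignments and a control, for each replicate and for the series, and from these an IDR-thresholded peak list. The deposited value used is the authors' signal per region, an enrichment score. Which aligner, peak caller and IDR threshold were used is not stated in those texts. The lists hold no read numbers, so depth is unknown, and signal was ranked within a list and not compared as a level between lists. Lists on ce11 were used; ce10 lists were not. All region ends lay within the chromosomes of WBcel235. Genes came from Ensembl release 115, and sequence from the RefSeq genome of WBcel235.

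A replicate rank is that of the strongest candidate region sharing 1 bp or more with the peak. Background shares are over all 19973 protein-coding genes. With 1 group of 2 libraries, no test was made. The code that places summits in windows was checked on simulated peaks at known distances, which is a check of the code and not of the data. All 30 members are named by rule, other pathway genes where called by promoter, and neighbours where they share a summit. The members, lists, words and rules were chosen with earlier results of these data known, and the backgrounds by length, candidate and neighbourhood after values were seen. Python 3.11.15 and matplotlib 3.10.9 were used.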

Additional observations from a re-analysis of the deposited data

How the results depend on the processing

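The count of 6 genes called by promoter stayed at 6 with either replicate alone (all 6 shared with replicate 2 alone, 4 with replicate 1 alone), with any 1 bp of the peak in the window and with nearest 5′ ends only. It was 7 with any annotated transcript 5′ end, 9 in the wider window and 4 in the narrower one. With the strongest 930 peaks it was 3. The number of roles with a promoter call, 4, was 2 with the strongest 930 peaks, 2 in the narrower window and 6 in the wider one, which added the destruction complex and TCF. With replicate 1 alone it was again 4, but without the kinase arm and with the other receptors and polarity genes. Within 5 kb the count of 16 was again 16 with replicate 2 alone, with axl-1 gained and cwn-2, the only ligand called, lost. With replicate 1 alone it was 17, with hmp-2 lost and lin-17 and vang-1 gained. Within 2 kb of the gene body it was 12. It was 9 when the summit had to lie in the gene body or promoter window, against 5.90% of all genes of any length. The genes lost were apr-1, cfz-2, cwn-2, dsh-1, gsk-3, hmp-2 and mig-14. The 7 of 29 other pathway genes called by promoter ran from 4 to 8 with 1 replicate left out and were 2 with the strongest 930 peaks and 2 in the narrower window. Of these the 3 nuclear and turnover partners ran from 1 to 3 with 1 replicate left out and were 0 with the strongest 930 peaks and 1 in the narrower window. The 14 within 5 kb were 9 with the strongest 930 peaks. These alternatives for the other pathway genes were chosen after seeing the data. Within 50 bp of the summit AGGTCA lay at 4 peaks and GAGAGA at 9. No paired analysis was possible because there was 1 group. Depth is unknown, and no library without the transgene was analysed here.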

Other observations

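Peaks near the 5′ ends of shorter transcripts were seen beyond lit-1; the examples were picked after their values were seen. At jac-1, the p120 catenin gene, a peak of 170 lay 113 bp from an internal transcript 5′ end and 20367 bp from the annotated start of the gene. At prkl-1, the Prickle gene, a peak of 163 lay 363 bp from such an end and 3002 bp from the start. That summit also lay in the noncoding RNA genes ZK381.36 and ZK381.37. At fmi-1, the Flamingo gene, a peak of 58.3 lay 325 bp from an internal transcript 5′ end and 7457 bp from the start.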
